A study of Rattus norvegicus with 9 samples.

Results

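The entries described here are 234 sequences of piRNA length that begin with U and carry no known piRNA name, out of 5794 entries listed in a table of small RNA from the hippocampal CA1 region of the rat. PIWI-interacting RNAs (piRNAs) are small RNAs bound by PIWI proteins, and the authors' table gives 512 entries the prefix rno_piR and 5282 the prefix novel_, which all members carry. The members are 27 to 32 nt long, had a mean of at least 1 normalised tag over the 7 libraries whose column headings list 3 numbers each, and shared no run of 16 bases with 6 other entries of the table. The members were thus chosen by their measured mean level, their length and their first base, which are given only as a description. Of 850 novel_ entries of that length, 522 reached the level, 42 were removed for the shared runs, and 480 were left, of which 234 began with U, 111 with A, 46 with C and 89 with G. The 246 entries that began with A, C or G are the comparison set.

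CA1 tissue came from adult male Wistar rats aged 7 to 8 weeks in 3 groups of 3 libraries each: Sham, tGCI26h, where tGCI stands for transient global cerebral ischemia and 26 is an hour, and HPC0h, where the hour is 0. HPC is not expanded in the labels, and neither the surgery of the Sham group nor what the hours are counted from is stated. Columns were matched to groups by the letter and hour in their headings, which carry no replicate number, so libraries are called Sham a, b and u, tGCI26h a, b and u, and HPC0h a, b and c, where u marks a heading that lists no such numbers. The numbers in each of the 7 headings are consecutive, but nothing states whether they are pooled animals, or whether a library is 1 animal, a pool or a repeat. The p-values therefore measure only the spread between these libraries, which may be technical.

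The library totals lay between 961372 and 992081 and reflect the authors' scaling, so sequencing depth is unknown. Both u libraries stood apart: they listed 1201 and 708 entries above 0 against 2558 to 2936 in the numbered libraries. Hardly any of their values was low, since the first percentile of the values above 0 was 10 in Sham u and 34 in tGCI26h u, against 1 in each numbered library. A blank in a u library therefore says nothing about a low level. Because 187 members were blank in both u libraries, the group comparisons are given with and without them.

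In germ cells piRNAs guide PIWI proteins to silence transposons, and they are known for a U at the 5′ end. Secondary piRNAs arise when a PIWI protein slices a target across from the tenth base of the guide, which leaves partners that overlap by their first 10 bases, with A at position 10. Few piRNAs are established in the adult brain, where fragments of tRNA and ribosomal RNA can be as long as a piRNA.

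The most abundant entries show how the list is built. Base 1 and base 10 are in capitals in the following sequences, written 5′ to 3′, of the members with the highest mean and of a ladder of 3 entries that share a start.
novel_11278_x294: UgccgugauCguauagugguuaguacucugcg
novel_1777_x4035: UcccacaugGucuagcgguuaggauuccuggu
novel_4637_x1015: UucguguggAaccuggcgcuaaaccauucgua
novel_3802_x1341: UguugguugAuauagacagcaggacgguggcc
novel_2896_x1983: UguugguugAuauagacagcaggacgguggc
novel_11591_x283: UguugguugAuauagacagcaggacggug
The last 3 sequences are 1 sequence cut at 32, 31 and 29 nt. novel_3802_x1341, the longest, had normalised tag counts of 73 and 57 in Sham a and b, 118 and 100 in tGCI26h a and b, and 90, 101 and 72 in HPC0h. novel_2896_x1983 had 72 and 57, 117 and 99, and 89, 100 and 72 in the same order. The shorter entry was at the same value or lower by 1 in every numbered library, and all 3 were blank in both u libraries. novel_11591_x283 had 72 and 57, 116 and 98, and 88, 99 and 72. Another entry with that start, novel_14327_x212 (28 nt), had 65 and 51, 105 and 86, and 77, 86 and 65. These 4 of the 10 most abundant members thus followed each other library by library.

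Such nesting ran through the whole list. Joining members that shared a run of 16 bases gave 69 families, of which 27 held 1 member, 28 held 2 to 5 and 14 held 6 or more, the last with 126 of the 234 members. A member overlapped another in 207 cases, and 122 members lay whole inside a longer member. There were 253 pairs with one sequence inside the other, and the longer entry was at or above the shorter one in all 7 numbered libraries in 253 of 253 pairs, or 1771 of 1771 values. The values were equal throughout in 42 of these pairs. In 293 pairs of unequal length from 1 family that overlapped without nesting, the longer entry was at or above the shorter in all 7 libraries in 163 (55.6%). The A, C or G-first entries gave 292 of 292 nested pairs. How tags were assigned to overlapping entries is not given in the sources used here. Sums over members may therefore count some tags more than once, and members of a family share sequence and are not taken as independent.

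**Figure D1:**
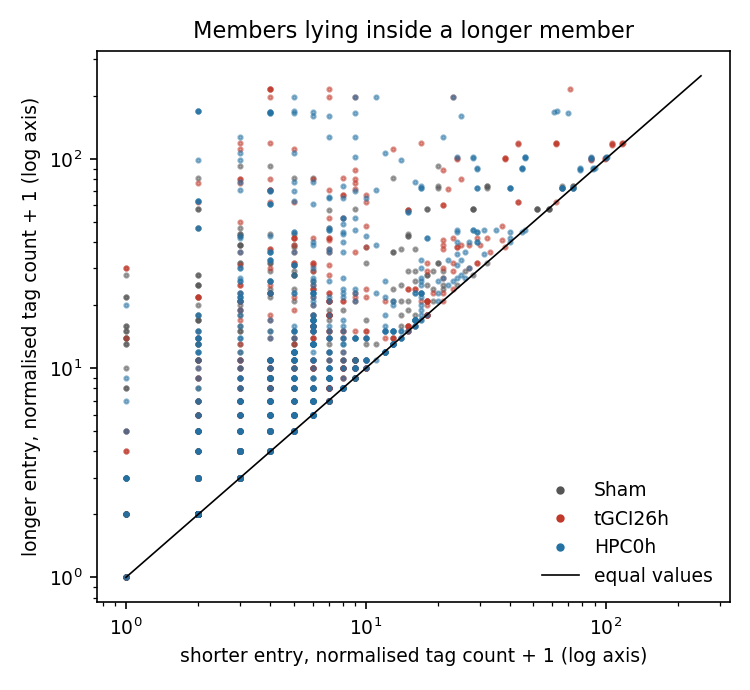
Normalised tag count plus 1 (log axes) of the shorter entry against the longer entry of each of the 253 pairs in which 1 member lies inside another. There is 1 point per pair and numbered library, coloured by group, and the line marks equal values. No point lies below the line.

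The 6 largest families held 10 to 12 members each. The largest, led by novel_8909_x405, covered 56 bases with 4 different starts, and its leading entry had 25 and 17 in Sham a and b, 31 and 41 in tGCI26h a and b, and 29, 51 and 22 in HPC0h. The ranges of the 3 groups touched or overlapped except Sham and tGCI26h, where both tGCI26h values were higher. The family of novel_3802_x1341 had 11 members over 39 bases. Its members' means added up to 510.1, the highest sum of the largest 6, although the same tags may stand behind several of them. The family led by novel_14682_x204 (11 members over 57 bases) was low, at 7 and 6 in Sham a and b, 10 and 6 in tGCI26h a and b and 9, 7 and 10 in HPC0h. Its leading entry was among the few members with values in both u libraries, 20 in Sham u and 96 in tGCI26h u.

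Only 2 members were joined by such runs to no listed entry outside the list: when all listed entries could join, 232 of 234 fell into components with non-members. Over all members there were 58 components with 2003 entries. Known piRNA names were a small part of this. A run of 16 bases with an entry named rno_piR was shared by 9 members, and novel_4622_x1019 contained the whole of rno_piR_005556. That member had a mean of 49.7 over the numbered libraries and rno_piR_005556 had 15.7. Of the 9, 6 overlapped rno_piR_000685, novel_4637_x1015 among them. That entry had 656 to 4337 tags in the 9 libraries, above every one of the 6 members.

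The family of novel_1777_x4035 held 4 pairs of equal-length members that differ at 1 base. The longest pair is shown with base 6, counted from the 5′ end, in capitals.
novel_1777_x4035: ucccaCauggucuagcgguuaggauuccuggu
novel_2285_x2785: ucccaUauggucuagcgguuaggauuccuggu
The substitution from the first to the second is C6U. novel_1777_x4035 had 80 and 27 in Sham a and b, 61 and 197 in tGCI26h a and b, and 126, 197 and 77 in HPC0h. novel_2285_x2785 had 46 and 14, 29 and 111, and 70, 106 and 42. The second entry was at 0.475 to 0.575 of the first across the 7 libraries, so the 2 forms kept a near-constant ratio while the level varied several-fold within a group. The other 3 pairs, shorter forms of the same sequences, also differed by C6U, and the U form was lower in 28 of 28 values. The 4 pairs overlap each other and are not independent, and whether mismatches were allowed in mapping is not given in the sources used here.

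Position 10 did not carry the A of secondary piRNAs more often than other positions. An A stood there in 51 of 234 members (21.8%), and 2 of the 19 positions from 2 to 20 had a lower share. Over the other positions the share of A ran from 19.2% to 31.6%. With 1 member per family the share was 13 of 69 (18.8%). It was 49 of 246 (19.9%) in the A, C or G-first entries and 7 of 19 (36.8%) in the rno_piR entries of the same length and level that begin with U. Among the 80 members with a mean of at least 10 it was 25 (31.25%), of which 8 belonged to the family of novel_3802_x1341. With the leading member of each of the 41 families that reached this level, it was 10 (24.4%).

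**Figure D2:**
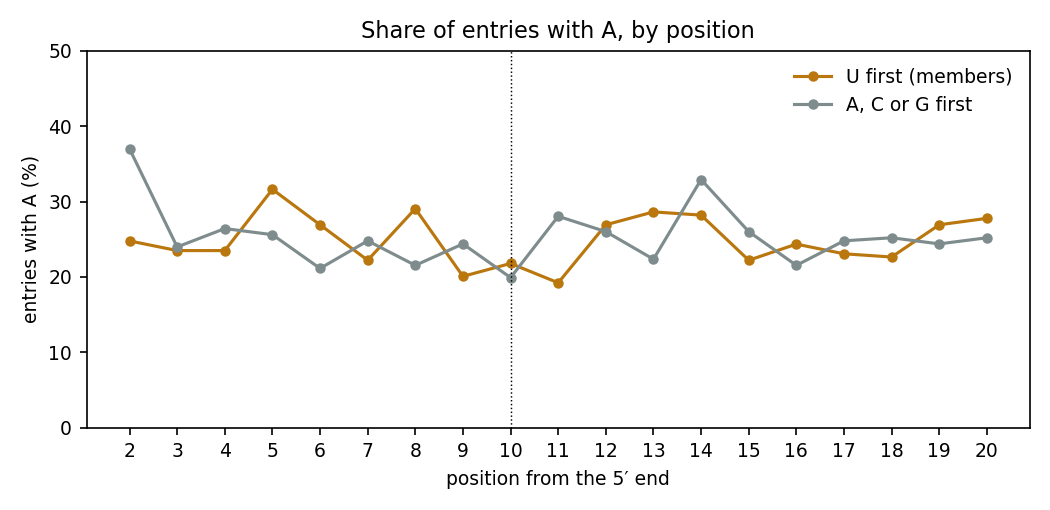
Share of entries with A (%) at positions 2 to 20 from the 5′ end, for the 234 U-first members and the 246 entries that begin with A, C or G. The dotted line marks position 10, where the members are at 21.8%.

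No member had a partner that overlapped by 10 complementary bases at the 5′ ends: 0 members at 9 to 16 bases and 6 members at 8 bases. The A, C or G-first entries gave 12 at 8 bases, 1 at 9 and 0 at 10. No listed entry held the reverse complement of any run of 16 bases of a member. This says only that the listed sequences hold no such partner. No member matched a mature or hairpin microRNA of the RefSeq table by a run of 16 bases, against 1413 of the 5794 listed entries (24.4%) matching a mature one. Among A, C or G-first entries of the same length it was also 0 of 246, and 1402 of the 1413 matching entries were 18 to 23 nt long. In base composition the members had a median GC content of 48.2%, with a range from 25.9% to 88.9%, against 46.9% in the comparison set. Length and first base were set by the rule. Over all members, A was not more frequent at position 10 than elsewhere, and no listed entry was a 10-base partner. Whether the members are piRNAs cannot be told from this, and they are called here U-first entries. Their origin in a piRNA cluster and their binding to a PIWI protein were not measured.

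Of the 234 members, 13 could be placed. No genome was used, but RefSeq promoter windows of the GRCr8 build, 250 bases before to 50 after each gene's start, were searched for exact matches. A run of 18 bases in a window was found for 34 members. All 13, from 3 families, lay whole in the windows of Rn45sl2 and Rn45sl1, and there inside annotated ribosomal RNA genes of 1872 bases, the annotated length of Rn18s, the gene for the small-subunit rRNA. These are LOC120102105 (chr11:239004-240875) and LOC120099695 (chr11:488049-489920), of which the window covered 16.03%. The following sequences show 4 overlapping members and their places in LOC120102105, all on the minus strand, with base 1 and base 10 in capitals.
novel_8927_x403 (chr11:239492-239523): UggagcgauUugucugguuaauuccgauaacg
novel_12007_x270 (chr11:239481-239511): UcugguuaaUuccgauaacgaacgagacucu
novel_9953_x349 (chr11:239478-239506): UuaauuccgAuaacgaacgagacucuggc
novel_12657_x251 (chr11:239466-239496): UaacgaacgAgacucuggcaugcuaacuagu
Within that window of 300 bases the members covered 123, and with the A, C or G-first entries, of which 17 lay in the rRNA genes, they covered 168. The placed members are named for their position, not their level. novel_14556_x207 was found also in the window of Spetex2l3, where no RNA gene is annotated. The strand of the rRNA genes is not in the table used, and the rest of the rRNA genes and the other members' origins were not analysed here.

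**Figure D3:**
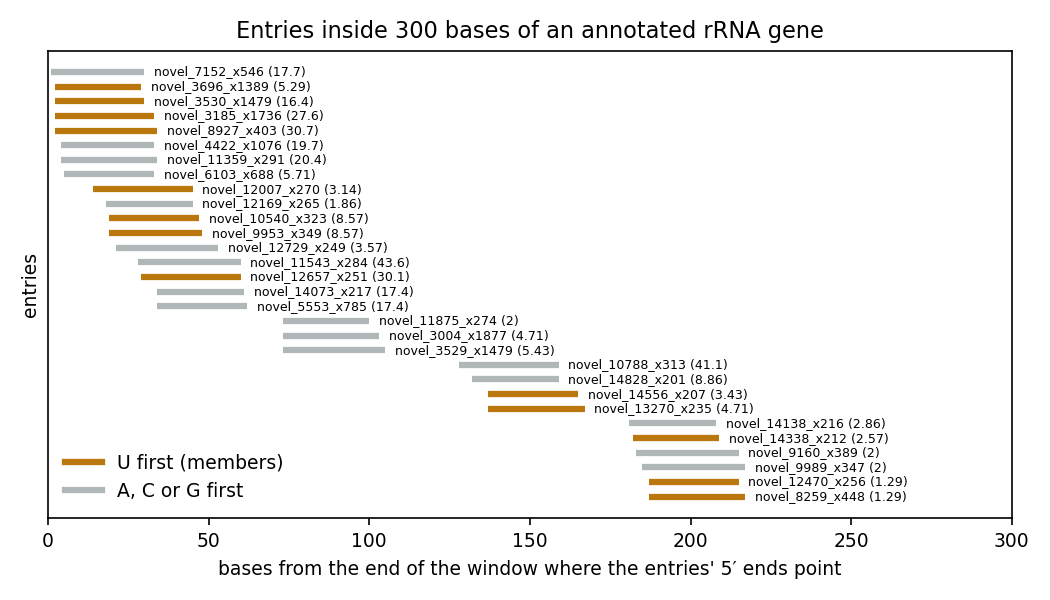
Position of the 30 placed entries along the 300 bases of the window in an annotated rRNA gene, counted from the end where their 5′ ends point. Brown lines are the 13 U-first members and grey lines the 17 entries that begin with A, C or G, each with its mean normalised tag count over the 7 numbered libraries in brackets.

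These 13 placed members were not the most abundant. The search covered 16.03% of the rRNA gene, so whether more abundant members match other rRNA sequence was not tested. novel_8927_x403 had 28 and 23 in Sham a and b, 31 and 40 in tGCI26h a and b, and 29, 44 and 20 in HPC0h. novel_12657_x251 had 27 and 18, 33 and 35, and 41, 41 and 16. In both members the tGCI26h values lay above the Sham values, and the HPC0h values overlapped both groups. The lowest of the 13, at a mean of 1.29, were novel_8259_x448 and novel_12470_x256, against 30.7 in novel_8927_x403, so entries of 1 gene differed widely in level.

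The members were rare. Their means over the numbered libraries ran from 1 to 124 normalised tags with a median of 5.86, 109 members (46.6%) were under 5, and 205 were above 0 in all 7 numbered libraries. The 10 most abundant held 27.7% of the summed means. At the threshold of the rule, novel_1177_x7966 had 1 tag in each numbered library and novel_13643_x226 had 0 and 0, 1 and 1, and 1, 2 and 2, both with a mean of 1. Just outside, novel_5978_x706 had a mean of 0.857 and novel_10676_x317 of 0.714, and 102 U-first entries in all lay below the level. By length, 36 to 47 members were of each size from 27 to 32 nt. The median level rose from 4.14 at 27 nt to 13.2 at 32 nt, in a list where longer entries were at or above those nested in them.

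Together the members made up 0.250% and 0.180% of the total in Sham a and b, 0.333% and 0.382% in tGCI26h a and b, and 0.333%, 0.419% and 0.257% in HPC0h a, b and c. All 5 libraries of the other two groups were above Sham a, HPC0h c by the least. Sham u was lowest at 0.114% and tGCI26h u highest at 1.02%. The group means were 0.181% ± 0.0683 for Sham, 0.577% ± 0.381 for tGCI26h and 0.336% ± 0.0810 for HPC0h (SD, n = 3 each), and without the u libraries 0.215% for Sham and 0.357% for tGCI26h. Counting only the leading member of each family gave 0.127% and 0.0906%, 0.161% and 0.200%, and 0.167%, 0.216% and 0.134% in the numbered libraries, with the same order of groups. The A, C or G-first entries were also lowest in Sham, at 0.334% and 0.322%, against 0.469% and 0.580% in tGCI26h a and b and 0.487%, 0.565% and 0.415% in HPC0h.

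**Figure D4:**
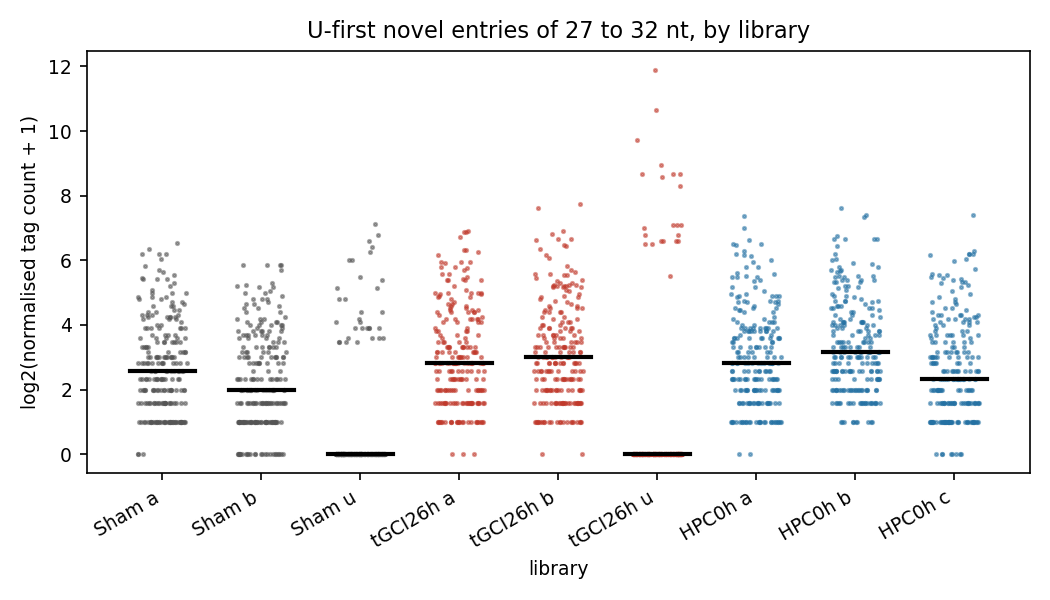
Normalised tag count plus 1 (log2 scale) of the 234 members in each of the 9 libraries, with bars at the medians. The medians are 3 to 8 tags in the numbered libraries and 0 in Sham u and tGCI26h u, where 32 and 22 members have a value.

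What stood in the u libraries was not the set of entries that led the numbered ones. In tGCI26h u, novel_13983_x219 held 3795 tags against 3 and 2 in Sham a and b, 3 and 6 in tGCI26h a and b, and 4, 5 and 3 in HPC0h. novel_14131_x216 held 1604 in tGCI26h u against 17 and 12 in Sham a and b, a blank in Sham u, 23 and 36 in tGCI26h a and b, and 40, 33 and 46 in HPC0h. novel_5563_x783 held 835 against 51 and 25, 44 and 47, and 54, 50 and 70. They held 38.0%, 16.04% and 8.35% of the members' sum in tGCI26h u, and without that library the tGCI26h share was close to that of HPC0h, at 0.357% against 0.336%. In Sham u the highest were novel_10562_x321 with 138, novel_12937_x243 with 108 and novel_11000_x304 with 96. These 6 were named for the u libraries after their values were seen, except novel_14131_x216. Their sequences, with base 1 and base 10 in capitals, follow for the 3 that were high in tGCI26h u.
novel_13983_x219: UaaacuccaUcuaaggcuaaauaccgg
novel_14131_x216: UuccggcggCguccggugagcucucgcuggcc
novel_5563_x783: UucuccuccGcgucggcgguucccccgc

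The first comparison asks which members differed between tGCI26h and Sham. In the numbered libraries most members were higher in tGCI26h: the ratio of the group means had a median of 1.60, with 195 members higher and 8 lower. Both tGCI26h values lay above both Sham values in 119 members (119 of 234), against 27.8% of all 2608 entries at this level, and below them in 5, against 7.71%. With 1 member per family the counts were 44 higher and 3 lower of 69. The A, C or G-first entries had the same median ratio, 1.60, with 130 of 246 above and 7 below. The median ratio over all entries was 1.18.

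No member passed an adjusted p of 0.05 in this comparison. In the fit of all 9 libraries with limma (log2 of value plus 1, 2824 entries), the 220 members with a mean of at least 1 over those libraries were tested and 0 were called, as were 0% of all entries. At an unadjusted p below 0.05 it gave 1 member, higher, against 1.38% of all entries. In the fit of the 7 numbered libraries, 0 of 234 members passed, against 0.844% of all entries, and the lowest adjusted p of a member in limma was 0.0853. At an unadjusted p below 0.05 it gave 48 members higher and 0 lower, against 12.6% of all entries. The median log2 difference of the members was 0.42 with 9 libraries and 0.61 with 7, against 0.14 and 0.21 over all entries. Without Sham u the 9-library median was -0.38, without tGCI26h a -0.15 and without tGCI26h b -0.17, while without tGCI26h u it was 1.28. In the 7-library fit 3 members passed without HPC0h c, 1 passed without each of Sham a, Sham b, tGCI26h a, tGCI26h b and HPC0h a, and 0 passed without HPC0h b. These fits called 22 to 41 of the 2606 to 2656 entries tested, 30 of 2608 without HPC0h c.

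Single members show the spread behind this. novel_14131_x216, with values given above, was the only member whose tGCI26h values all lay above all its Sham values in the 9 libraries. A member blank in tGCI26h u could not meet this. Its log2 difference was 4.19 ± 1.73 (SE, n = 3 against 3; limma adjusted p = 0.781), and 0.96 ± 0.30 without the u libraries (adjusted p = 0.322 in limma). The first value rests on 1604 tags in tGCI26h u. novel_8031_x466 (27 nt) had 7, 6 and 34 in Sham a, b and u, 5, 5 and a blank in tGCI26h, and 6, 10 and 7 in HPC0h. With the blank read as 0 it was the only member whose tGCI26h values all lay below all its Sham values. Its log2 difference was -1.92 ± 1.09 (limma adjusted p = 0.781), but -0.32 ± 0.24 without the u libraries. novel_10243_x334, 1 of the 10 most abundant, had 42 and 38 in Sham a and b, 79 and 80 in tGCI26h a and b and 48, 65 and 43 in HPC0h. Its replicates were close and tGCI26h was highest, with a log2 difference from Sham of 0.98 ± 0.21 in the numbered libraries (limma adjusted p = 0.217) and 0.65 ± 1.93 with the u libraries, where it was blank.

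HPC0h was compared with Sham next, and the same Sham libraries serve in both comparisons. In the numbered libraries the ratio of means had a median of 1.5, with 216 members higher and 8 lower in HPC0h. All 3 HPC0h values lay above both Sham values in 66 members, against 18% of all entries, and below them in 3, against 4.03%. The A, C or G-first entries gave a median ratio of 1.53, with 66 of 246 above and 8 below, and all entries a median of 1.22. With 1 member per family, 16 of 69 lay above and 1 below.

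As with tGCI26h, 0 members passed at an adjusted p of 0.05. The 9-library limma fit called 0 of 220 members and 0% of all entries, and at an unadjusted p below 0.05 it gave 1 member, higher, against 0.744% of all entries. The 7-library fit called 0 of 234 members against 1.38% of all entries, with a lowest adjusted p of 0.0641, and at an unadjusted p below 0.05 it gave 41 members higher and 3 lower against 13.4%. The median log2 difference of the members was 1.19 with 9 libraries and 0.47 with 7, against 0.53 and 0.21 over all entries. HPC0h has no u library, and without Sham u the 9-library median was 0.49, against 0.20 over all entries. Scaling the 7 libraries by median of ratios moved the median over all entries to 0.05 in tGCI26h and 0.03 in HPC0h against Sham, and that of the members to 0.43 and 0.28. With that scaling 1 member passed, novel_13643_x226 at a limma adjusted p of 0.040, with 0 to 2 tags in every numbered library, and 22 of all 2608 entries passed. novel_13643_x226 had 0 and 0 in Sham a and b, so it reached the level only through the groups in which it was higher. When 1 of the 7 libraries was left out, 3 members passed without HPC0h a or HPC0h c, 2 without tGCI26h a or b, 1 without Sham a or b and 0 without HPC0h b. These fits called 27 to 62 of all entries tested, 62 of 2606 without HPC0h a and 46 of 2608 without HPC0h c.

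The most abundant member of all stood out in this comparison. novel_11278_x294 had 43 and 31 in Sham a and b, 79 and 215 in tGCI26h a and b, and 165, 167 and 169 in HPC0h, and was blank in both u libraries. Its HPC0h values were nearly alike and above both Sham values, and tGCI26h spanned them. The log2 difference of HPC0h from Sham in the numbered libraries was 2.16 ± 0.44 (SE, n = 3 against 2; limma adjusted p = 0.147), and 3.91 ± 2.04 with the u libraries (limma adjusted p = 0.822). This log2 difference uses no tGCI26h value, so leaving out tGCI26h a or b could not change it. novel_12902_x244, 1 base shorter with the same start, had 14 and 9 in Sham a and b, 24 and 70 in tGCI26h a and b, and 69, 60 and 62 in HPC0h. It had the smallest p of the members in the 9-library fit, at 3.60 ± 1.64 (limma adjusted p = 0.822), and 2.40 ± 0.48 without the u libraries (limma adjusted p = 0.145). It was blank in Sham u, which the 9-library fit reads as 0, and its log2 difference also uses no tGCI26h value. Both entries lie in 1 family and are not independent.

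The next smallest p values among non-overlapping members in that fit came from another family. novel_5405_x816 had 4 and 1 in Sham a and b, 6 and 14 in tGCI26h a and b and 13, 13 and 6 in HPC0h, a log2 difference of 2.37 ± 1.13 from Sham with 9 libraries and 1.81 ± 0.61 with 7. novel_4909_x932, its 29-nt form, had 3 and 1, 5 and 9, and 9, 9 and 5, at 2.08 ± 1.02 with 9 libraries and 1.58 ± 0.45 with 7. HPC0h lay above Sham in both, but both were blank in Sham u, which the 9-library fit reads as 0. The adjusted p in limma was 0.822 for each in the 9-library fit, and 0.305 and 0.226 in the 7-library fit.

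**Figure D5:**
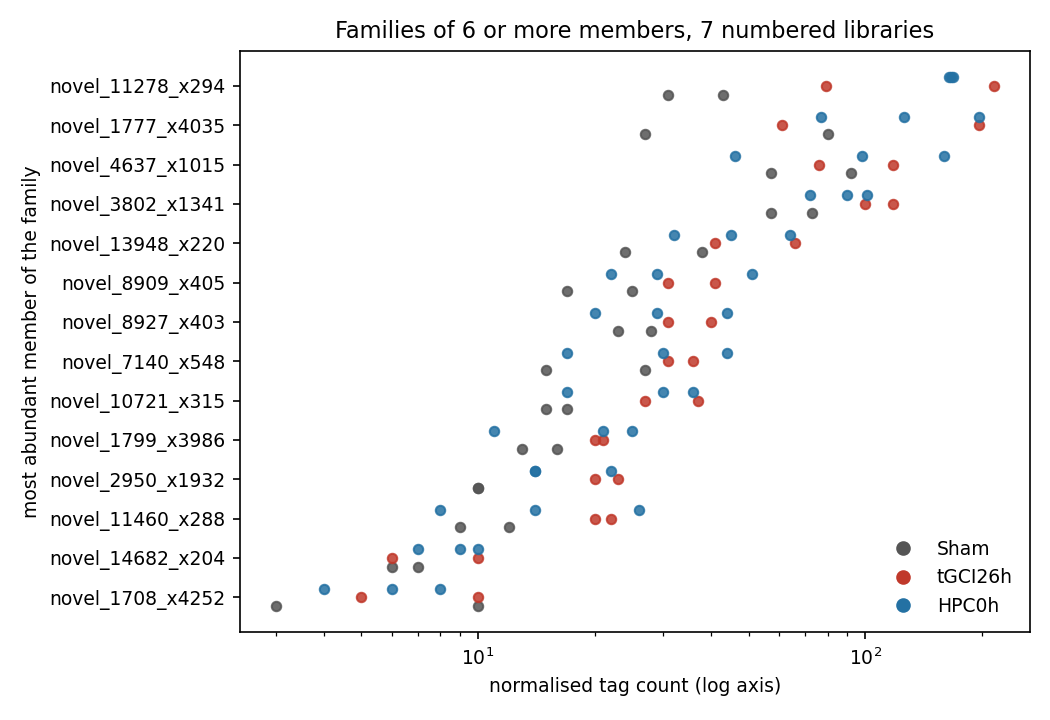
Normalised tag count (log axis) of the leading member of each of the 14 families with 6 or more members in the 7 numbered libraries, 1 point per library and coloured by group. The lowest value is a Sham library in most families, level with tGCI26h b in that of novel_14682_x204. It is HPC0h c in those of novel_4637_x1015, novel_1799_x3986, novel_8927_x403 and novel_11460_x288. novel_11278_x294 has Sham at 31 and 43 and HPC0h at 165 to 169.

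Between HPC0h and tGCI26h the members had no common direction. The ratio of means in the numbered libraries had a median of 0.957, with 97 members higher and 125 lower in HPC0h, and the groups did not overlap in 5 members higher, against 8.9% of all entries, and 4 lower, against 3.34%. The A, C or G-first entries gave 0.963. limma called 0 of 220 members with 9 libraries, where 0% of all entries passed, and 0 of 234 with 7, against 0.46% of all entries. At an unadjusted p below 0.05 there were 0 members in the first fit, against 0.283% of all entries, and 2 higher and 2 lower in the second, against 7.02%. The 9-library median log2 difference of 0.89 turned to -0.10 without tGCI26h u, and the 7-library median was -0.09. In the 7-library fit 3 members passed without HPC0h a, where 31 of 2606 entries did, and 1 without HPC0h c, where 18 of 2608 did. Among members whose values did not overlap between the groups, with blanks as 0, the smallest p belonged to novel_13228_x236 at a log2 difference of 1.32 ± 0.90, novel_8031_x466 at 1.37 ± 1.09 and novel_9579_x366 at 2.07 ± 1.82, each with a limma adjusted p of 0.722. novel_13228_x236 had 2 and 2 in tGCI26h a and b, a blank in tGCI26h u and 3, 6 and 4 in HPC0h. novel_9579_x366 had 51 and 47 in tGCI26h a and b, a blank in tGCI26h u and 63, 54 and 52 in HPC0h, so the lowest of the 3 tGCI26h values of both members was a blank read as 0. In novel_8031_x466 it was a blank as well. Without the u libraries novel_13228_x236 was at 0.79 ± 0.26 (limma adjusted p = 0.695), novel_8031_x466 at 0.50 ± 0.22 (0.800) and novel_9579_x366 at 0.19 ± 0.15 (0.882).

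Libraries of 1 group also differed. The median ratio over members was 1.23 between Sham a and b, 1 between tGCI26h a and b, and 2 between HPC0h b and c. That last ratio, between libraries of 1 group, was larger than the median ratio of either group to Sham.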

How the data were processed

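Small RNA of CA1 was sequenced in 9 libraries. Per the labels' protocols, Trizol RNA received 3′ and 5′ adaptors and was amplified, size-selected near piRNA length and run on a HiSeq. Novoalign 3.02.12 and cutadapt 1.9.3 are named in the submitters' processing notes. The genome build, the rule behind the novel_ names and the counting of overlapping entries are not given in the sources used here. The deposited values were handled as a score, since they are tag counts that the authors normalised and rounded to whole numbers, so no count model was used. Depth is unknown. A test on log2(value + 1) was planned and kept, with blanks as 0.

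With R 4.3.3, limma 3.58.1 was fitted with a trend to entries with a mean of at least 1 and 3 groups in 1 fit. Benjamini-Hochberg adjustment ran over all entries, with a threshold of 0.05. The fit was checked on simulated data without blanks or libraries like the u libraries. What the 9-library fit could detect with the u libraries in it was not tested. The main fit used 9 libraries, and the fit of the 7 numbered libraries is given beside it. Fold changes on this scale understate low entries.

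The members, lists and tests were chosen with earlier results of these data known. Named are the 10 most abundant members, the leading members of the 6 largest families, up to 3 non-overlapping members with the smallest p per comparison and direction, and 2 entries on each side of the level. Members called in the 7-library fit and members with a 5′ partner would also have been named, and there were 0 of each. Of the table, 11 emptied lines were not analysed here, and some sequences are not reported here. Sequences and coordinates of genes are from RefSeq, GRCr8.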

Additional observations from a re-analysis of the deposited data

How the results depend on the processing

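In the 9-library fit 0 members were called in each comparison under every alternative: a pseudocount of 5, a mean of at least 10 or no filter, median-of-ratios scaling, quantile normalisation, no trend, the 2 compared groups only, blanks as missing, and each library left out. These fits also called 0 of all entries, except with blanks as missing. There 3 of 2908 entries passed for tGCI26h against Sham, 13 for HPC0h against Sham and 1 for HPC0h against tGCI26h. The 0 members are therefore no result particular to the members. In the 7 numbered libraries 1 member was called for HPC0h against Sham with median-of-ratios scaling, and leaving out 1 library gave 0 to 3 called members in each comparison, where 18 to 62 of all entries were called. These 7-library combinations were chosen after seeing the data. With each library left out, the median log2 difference ran from -0.38 to 1.28 (9 libraries) or 0.30 to 0.82 (7) for tGCI26h against Sham, from 0.49 to 1.69 or 0.29 to 0.64 for HPC0h against Sham, and from -0.10 to 1.40 or -0.25 to 0.13 for HPC0h against tGCI26h. The summed share ran from 0.147% to 0.215% in Sham, 0.357% to 0.699% in tGCI26h and 0.295% to 0.376% in HPC0h. With 1 member per family, also chosen after seeing the data, it was 0.102% in Sham and 0.172% in HPC0h, and with members inside no other member it was 0.221% in HPC0h, because fewer entries are summed. Families joined by runs of 12 bases reached 23 members instead of 12. The share with A at position 10 was 31.25% at a mean of at least 10. No paired analysis was possible because the column headings carry no replicate numbers. Unknown depth, rounding to whole tags and the missing low values of the u libraries limit every low member.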

Other observations

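The share of novel_ entries that begin with U was compared across lengths at the same level and with the same exclusions. It was 588 of 1316 (44.7%) at 18 to 23 nt, 96 of 251 (38.2%) at 24 to 26 nt, 234 of 480 (48.8%) at 27 to 32 nt and 151 of 373 (40.5%) at 33 to 39 nt. Counting each 16-base start once, the shares were 38.98%, 38.5%, 44.3% and 39.6% in that order. In tags, U-first entries made up 35.9% to 42.8% of the tags of novel_ entries of 27 to 32 nt in the numbered libraries, and 37.6% in Sham u and 32.01% in tGCI26h u. These shares are descriptions, since overlapping entries may share tags.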
